A study of Mus musculus with 8 samples.

Results

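The first week of osteogenic medium was examined in cardiac fibroblasts, the connective tissue cells of the heart, by comparing cells harvested after 7 days in the medium with cells harvested before it. The comparison uses 4 of the 8 RNA sequencing libraries of the series, chosen by their labels: 2 of untreated cells (day 0) and 2 of cells kept 7 days in differentiation medium (day 7). Cells of both groups were wild type, of the C57BL/6J strain, and labelled with an age of 8 weeks. The other 4 libraries, from days 14 and 21, entered only the shared estimate of spread and a test of the first week against the second. Neither group has a counterpart kept in culture for the same time without the medium, so effects of the medium and of days in culture cannot be told apart. Whether the libraries of 1 day came from separate cultures or animals is not labelled, so the p-values rest on a spread between libraries that may be technical alone.

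Fibroblasts plated on a stiff surface in serum divide and assemble contractile stress fibres, and they leave both states when growth signals decline or when they differentiate. Osteogenic media commonly hold a glucocorticoid, ascorbate and a phosphate donor, but the recipe of this one is not labelled. A glucocorticoid acts through its receptor, a transcription factor that binds short palindromes in DNA, while genes of the cell division cycle share other promoter elements, read by E2F proteins and by a complex that assembles in resting cells. BMP, TGF-beta, Wnt and insulin-like growth factor signals all bear on whether a mesenchymal cell moves towards bone, fat, cartilage or scar.

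The day 0 libraries held 21883498 and 13399313 reads on genes and the day 7 libraries 19399248 and 20225968. Levels below are normalized counts (a gene's reads over the size factor of its library), and changes are log2 differences of level plus 1, day 7 minus day 0, given with the standard error of the limma fit, so folds of low genes are understated. A gene is called, and said to have risen or fallen, at an adjusted p below 0.05 (limma, Benjamini-Hochberg over all 13527 tested genes). Of these, 7492 genes (55.4%) were called, 3721 higher (27.5%) and 3771 lower (27.9%), and the median log2 change of all tested genes was -0.01. Counts in any gene list below are read against these shares. Rises of at least 2-fold were called for 1615 genes (11.9%) and falls of that size for 1224 (9.05%). Genes that rose at least 4-fold (648, 4.79%) outnumbered genes that fell at least 4-fold (363, 2.68%), at 8-fold there were 274 (2.03%) against 164 (1.21%), and at 16-fold 109 (0.806%) against 46 (0.34%). With 8 added to each level in place of 1, which shrinks the change of low genes, 397 genes rose at least 4-fold. Both libraries of day 7 lay above both of day 0 for 5523 genes (40.8%) and below them for 5732 (42.4%). Where a gene below was chosen for its large change, the separation of its libraries describes it and is no further support.

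**Figure D1:**
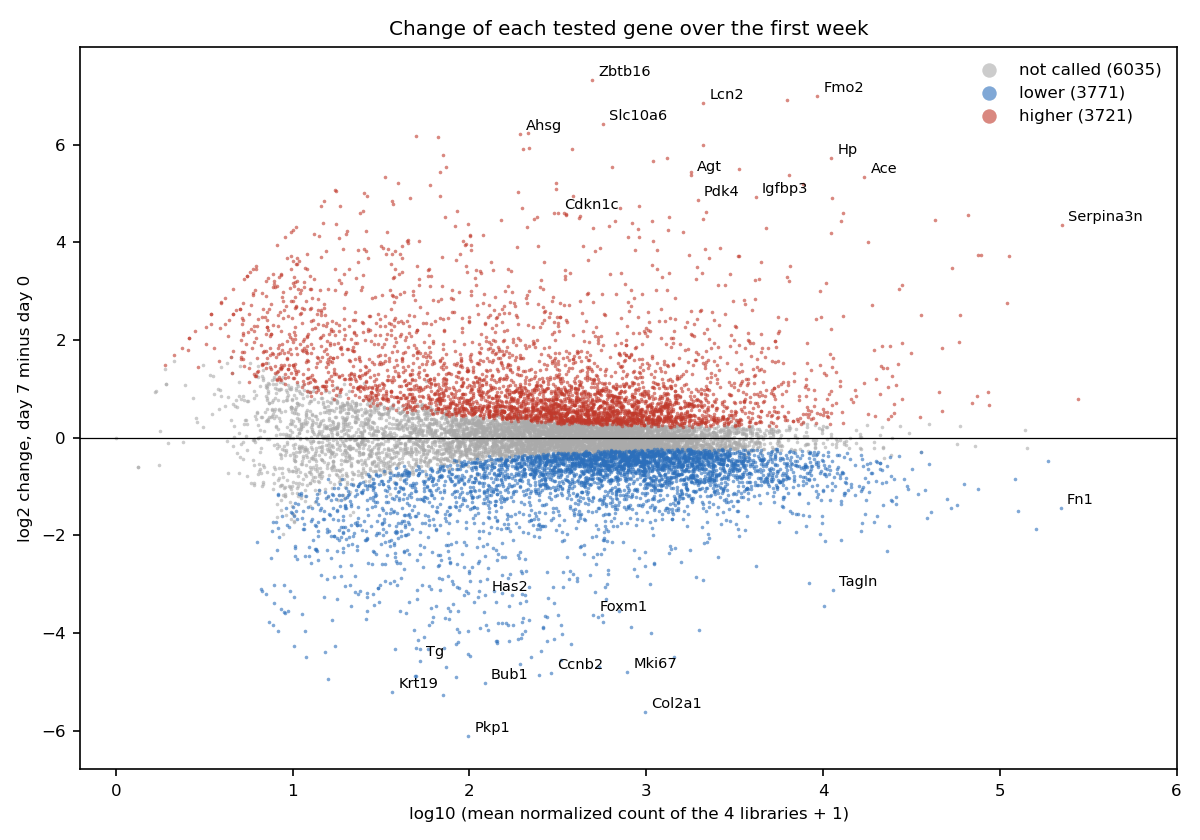
Log2 change from day 0 to day 7 (vertical) against the log10 mean normalized count of the 4 libraries plus 1 (horizontal) for 13527 tested genes, coloured by call. Called genes lie at every level on both sides of 0, with rises reaching 7.32 for Zbtb16 and falls reaching -6.11 for Pkp1.

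Markers of cell types were summed in each library to check the label and to look for other cells. In bulk RNA, fewer cells of a type and less RNA per cell cannot be told apart. The 10 fibroblast markers summed to 719123 and 712489.6 at day 0 and 481581 and 507586 at day 7, with 5 higher and 3 lower. The fall of the sum goes with Col1a1 (log2 -1.87 ± 0.18), while the proteoglycans Dcn and Lum rose and the intermediate filament Vim (log2 -0.21 ± 0.15) was not called. Macrophage markers summed to 1154 and 1232 at day 0 and 11897 and 9593 at day 7, and 12 of 13 rose, Tyrobp by log2 3.71 ± 0.26 and Ptprc, the leukocyte antigen CD45, by log2 3.24 ± 0.28. Endothelial markers summed to 779 and 804 at day 0 and 640.4 and 655 at day 7, and 3 of 10 fell: Erg (log2 -2.18 ± 0.45), Cdh5 (log2 -1.29 ± 0.34) and Egfl7 (log2 -0.92 ± 0.35). The call of Cdh5 was lost without the first library of day 7 (-1.09, adjusted p = 0.0671), and that of Egfl7 without any 1 of the 4 libraries (-0.84 to -1.01). Cardiomyocyte markers summed to 1213 and 1139 at day 0 and 11754 and 11095 at day 7, nearly all of it troponin T, Tnnt2, with 1207 and 1134 normalized counts at day 0 and 11739 and 11078 at day 7 (log2 3.28 ± 0.21, adjusted p = 6.97e-08). The cardiac myosin heavy chains Myh6 and Myh7 were at 0 in all 4 libraries. The adipocyte sum went from 78.8 and 112 to 2048 and 2068, carried by Fabp4 (log2 4.43 ± 0.15). Mesothelial or epithelial markers summed to 1429 and 1322 at day 0 and 1066 and 1033 at day 7, with Msln higher (log2 4.31 ± 0.32), Krt19 and Lrrn4 (log2 -2.79 ± 0.35) lower, and Krt8 and Epcam at 0. In the libraries of days 0 and 7 T cell markers summed to at most 3.57, B cell markers to at most 2.39 and neutrophil markers to at most 6.38. Pericyte and smooth muscle markers summed to 1348 and 1425 at day 0 and 2902 and 2783 at day 7 (3 of 7 higher, 1 lower, median log2 -0.22, which turned to 0.848 among members that passed a filter at 50 normalized counts and to 0.00484 without the first library of day 7), osteoclast markers to 1009 and 994 at day 0 and 1568 and 1736 at day 7, mast cell markers to 31.1 and 24.8 at day 0 and 50.1 and 58 at day 7 and Schwann cell markers to 129.8 and 144 at day 0 and 154 and 158 at day 7. Osteoblast markers summed to 245549 and 260356 at day 0 and 70428 and 78623 at day 7, nearly all of it Col1a1, and Sp7 and Ibsp were at 0 in all 4 libraries. Of the 5 osteoblast markers tested 2 rose, the matrix phosphoproteins Spp1 (log2 1.13 ± 0.16) and Dmp1, and 2 fell, Col1a1 and the phosphatase Alpl (log2 -0.96 ± 0.28), while the regulator Runx2 was not called (log2 -0.25 ± 0.20). The call of Alpl was lost without the second library of day 0 (-0.592, adjusted p = 0.16), without the first of day 7 (-0.69, adjusted p = 0.118) and in DESeq2. Dmp1 had 2 reads at day 0 and 23 at day 7, summed over the libraries of each day, which gives 10.5-fold (95% interval of counting error 2.59-91.6). The part of other cells in the results below was not tested.

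**Figure D2:**
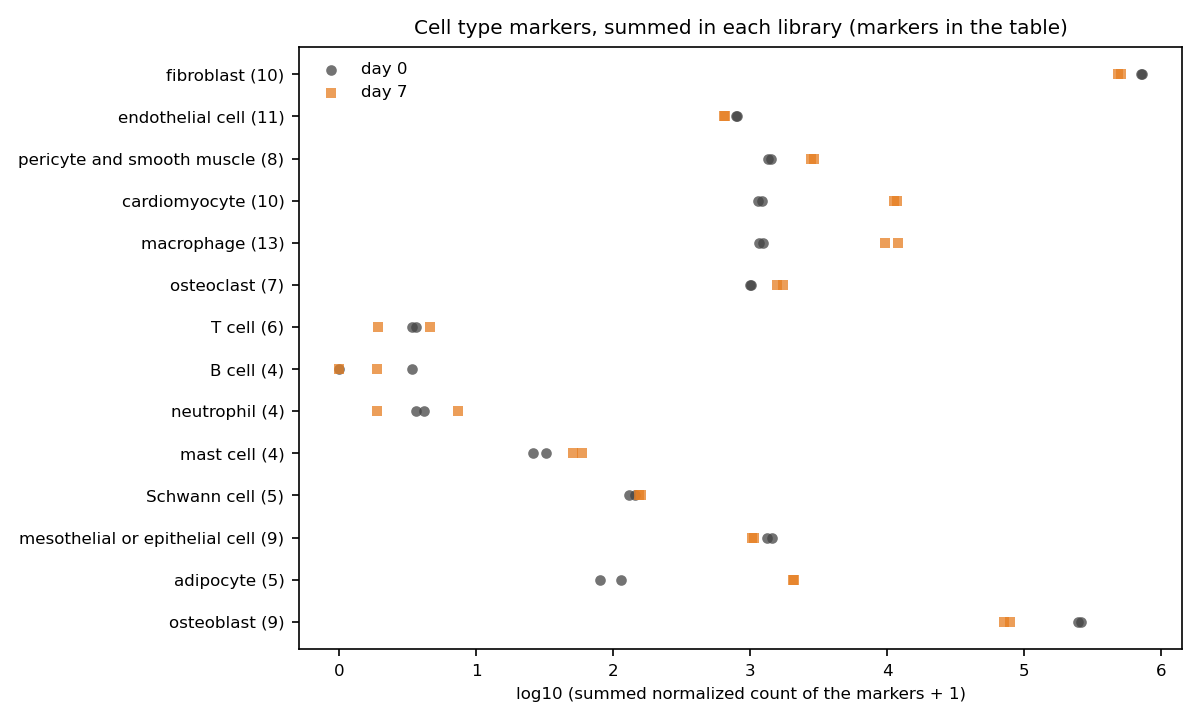
Summed normalized count of the markers of 14 cell types in each library (log10 of the sum plus 1, horizontal), with the number of markers in the table in brackets; circles are the day 0 libraries and squares the day 7 libraries. The macrophage, cardiomyocyte and adipocyte sums moved up, and the fibroblast and osteoblast sums moved down.

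The largest rise was that of Zbtb16, a zinc finger repressor known to respond to glucocorticoids, which had 3.18 and 7.84 normalized counts at day 0 and 1026 and 925 at day 7 (log2 7.32 ± 0.29, adjusted p = 1.29e-09). Fmo2, a flavin-containing monooxygenase that oxidizes drugs and other foreign compounds, had 102 and 203 normalized counts at day 0 and 19389.7 and 17457 at day 7 (log2 6.99 ± 0.25, adjusted p = 4.67e-10). Slc10a6, a sodium-coupled carrier that brings steroid sulfates into cells, had 6.37 and 22.2 normalized counts at day 0 and 1059 and 1177 at day 7 (log2 6.42 ± 0.35, adjusted p = 2.02e-08). Ahsg, which encodes the calcification inhibitor fetuin-A, had 3.18 and 5.23 normalized counts at day 0 and 364 and 393 at day 7 (log2 6.22 ± 0.19, adjusted p = 1.95e-10). In each of these 4 genes the libraries of day 7 stood far above those of day 0. That they did not overlap was required by the rule for naming the largest rises. Haptoglobin, Hp, which binds free haemoglobin, rose by log2 5.73 ± 0.24, and the lipocalin Lcn2, which holds iron carriers of bacteria, by log2 6.84 ± 0.21. Lrg1, a secreted leucine-rich glycoprotein (log2 5.99 ± 0.22), Serpina3k, a protease inhibitor (log2 5.93 ± 0.16), and C2, a complement protease (log2 5.91 ± 0.39), rose to a like extent. Sult1a1, which adds sulfate to phenols, rose by log2 6.23 ± 0.23, and the chloride channel family member Clic5 by log2 5.91 ± 0.40. Some of the steepest rises began from almost no reads. Kank4, a cytoskeletal adaptor, had 1 read at day 0 and 215 at day 7, summed over the libraries of each day, which gives 196-fold (95% interval of counting error 34.8-7768). Acss1, which makes acetyl-CoA from acetate in mitochondria, had 3 reads at day 0 and 289 at day 7, summed over the libraries of each day. That gives 87.7-fold (95% interval of counting error 29.7-428). Fam107a, an actin-binding protein, had 3 reads at day 0 and 308 at day 7, summed over the libraries of each day. That gives 93.5-fold (95% interval of counting error 31.7-456). Serpina3 genes have near-identical relatives, and Fmo genes have less similar ones. Counting may have misplaced or dropped reads that relatives share, so the values of these genes are uncertain.

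The largest fall was that of Pkp1, plakophilin 1 of the desmosome, which had 198 and 187 normalized counts at day 0 and 1.82 and 1.78 at day 7 (log2 -6.11 ± 0.56, adjusted p = 1.66e-06). Col2a1, the fibrillar collagen of cartilage, had 1916 and 1922 normalized counts at day 0 and 38.3 and 38.3 at day 7 (log2 -5.61 ± 0.41, adjusted p = 2.17e-07). Tg, thyroglobulin, had 104 and 94.1 normalized counts at day 0 and 5.47 and 1.78 at day 7 (log2 -4.56 ± 0.52, adjusted p = 1.27e-05). All 3 were nearly equal between the libraries of day 0. Their day 0 values lay clearly above those of day 7, and the rule for naming the largest falls required that they not overlap. Sprr3, a protein of the cornified envelope of skin, changed by log2 -4.89 ± 0.47. The simple keratin Krt19 had 142 reads at day 0 and 3 at day 7, summed over the libraries of each day. That gives 0.0192-fold (95% interval of counting error 0.00392-0.0574). The remaining 10 of the 15 largest falls were mitotic genes: Bub1 of the spindle checkpoint (log2 -5.03 ± 0.46), Kntc1 of the kinetochore (log2 -4.89 ± 0.56), Plk1, a mitotic kinase (log2 -4.69 ± 0.20), Ube2c, which marks cyclins for destruction (log2 -4.56 ± 0.22), Mki67, Ccnb2 and the kinesin motors Kif15, Kif14, Kif23 and Kif2c.

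Cyclins and their kinases mostly fell. Among cyclins, their kinases and the phosphatases that activate them, 1 of 17 tested members rose, 14 fell and 2 were not called (median log2 -1.15). Cyclin B2, Ccnb2, which drives entry into mitosis, had 572 and 541 normalized counts at day 0 and 14.6 and 24.1 at day 7 (log2 -4.82 ± 0.28, adjusted p = 3.36e-08). Cyclin B1 (Ccnb1, log2 -3.68 ± 0.22), the phosphatase Cdc25c (log2 -4.08 ± 0.41) and cyclin A2 (Ccna2, log2 -2.28 ± 0.14) fell as well. Cyclin D1, Ccnd1, the sensor of growth factor signals in early G1, had 5498 and 5925 normalized counts at day 0 and 5922 and 5535 at day 7. Its libraries overlapped between the days, and its change was log2 0.00 ± 0.12 (adjusted p = 0.979). Of the brakes on the cycle, 8 of 15 tested members rose, 4 fell and 3 were not called (median log2 0.79). Cdkn1c, the p57 inhibitor of cyclin-dependent kinases, had 23.1 and 24.8 normalized counts at day 0 and 608 and 601 at day 7 (log2 4.60 ± 0.13, adjusted p = 1.26e-10). No other brake rose by as much, the next being Rbl2, the p130 pocket protein that represses cell cycle genes in resting cells (log2 1.52 ± 0.10), and Cdkn2a (log2 1.12 ± 0.13). Rbl1, the p107 relative found in cycling cells, fell (log2 -1.09 ± 0.21), as did the p53-induced inhibitor Cdkn1a (log2 -0.63 ± 0.10). The p53 targets fell more often than they rose: 2 of 15 tested members rose, 10 fell and 3 were not called (median log2 -0.61). Tnfrsf10b, a death receptor, changed by log2 -1.80 ± 0.12 and Ccng1, cyclin G1, by log2 -1.15 ± 0.10, whereas Sesn1, a stress-induced inhibitor of growth signalling that FoxO factors also activate, rose by log2 2.26 ± 0.13.

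Among factors that transcribe cell cycle genes, activators of mitosis and late repressors fell. In the list of E2F, B-Myb and FoxM1 regulators 4 of 16 tested members rose, 9 fell and 3 were not called (median log2 -0.51). FoxM1, the activator of mitotic genes, had 902 and 948 normalized counts at day 0 and 70.1 and 78.5 at day 7 (log2 -3.62 ± 0.16, adjusted p = 3.42e-09). The libraries of each day agreed closely and did not overlap with those of the other. E2f8 (log2 -3.97 ± 0.43) and E2f7 (log2 -3.91 ± 0.43), late-cycle repressors that are themselves made in S phase, fell with B-Myb, Mybl2 (log2 -3.40 ± 0.32). E2f4, the E2F of resting cells, was not called (log2 0.12 ± 0.10, adjusted p = 0.328).

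Genes for chromosome copying and segregation mostly fell. At the kinetochore and centromere 1 of 32 tested members rose, 25 fell and 6 were not called (median log2 -2.24). Casc5 (log2 -4.33 ± 0.47), the scaffold also called KNL1, Nuf2 (log2 -4.17 ± 0.43), which grips microtubules, Cenpf (log2 -4.02 ± 0.25) and the motor Cenpe (log2 -3.95 ± 0.25) fell the most, while Zwint (log2 0.13 ± 0.11) and Mis12 (log2 -0.23 ± 0.12) were not called. At replication origins and forks 0 of 26 tested members rose, 25 fell and 1 was not called (median log2 -1.62). The loading factors Cdc6 (log2 -3.69 ± 0.39) and Cdt1 (log2 -2.66 ± 0.26) and the helicase proteins Mcm10 (log2 -3.67 ± 0.48) and Mcm5 (log2 -3.16 ± 0.14) led this list. For homologous recombination, 0 of 18 tested members rose, 17 fell and 1 was not called (median log2 -1.88), with the nuclease Exo1 (log2 -4.15 ± 0.39) and the crosslink repair protein Fancd2 (log2 -2.93 ± 0.38) among the falls. Nucleotide synthesis followed, where 0 of 25 tested members rose, 22 fell and 3 were not called. Tk1, the thymidine kinase of S phase, changed by log2 -3.74 ± 0.20, thymidylate synthase Tyms by log2 -2.44 ± 0.15, mitochondrial folate enzyme Mthfd1l by log2 -2.23 ± 0.14 and the reductase subunit Rrm1 by log2 -2.06 ± 0.10.

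Promoters of such genes are shown because the letters that cell cycle regulators read are visible in them. RefSeq (GRCm38.p6) gave a single promoter for 8503 of the tested genes (62.9%), and 10 motifs were searched on both strands of the 250 bases before the start. Capitals mark 3 of them: the CHR (TTTGAA, or TTCAAA on the other strand), the CCAAT box (CCAAT or ATTGG) and the E2F site (TTTCCCGC or TTTGGCGC, or their reverse complements). The Mki67 stretch is chr7:135716460-135716579, minus strand, that of Ube2c chr2:164769829-164769928, plus strand, that of E2f8 chr7:48881597-48881716, minus strand, that of Cdc6 chr11:98907991-98908050, plus strand and that of Mcm5 chr8:75109349-75109508, plus strand. All promoters printed here were chosen after the values of their genes were seen.
Mki67: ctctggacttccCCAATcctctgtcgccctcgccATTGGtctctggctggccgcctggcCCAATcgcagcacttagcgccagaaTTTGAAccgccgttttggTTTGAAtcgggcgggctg
Ube2c: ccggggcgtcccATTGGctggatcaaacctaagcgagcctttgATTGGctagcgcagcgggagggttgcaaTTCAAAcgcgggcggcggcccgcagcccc
E2f8: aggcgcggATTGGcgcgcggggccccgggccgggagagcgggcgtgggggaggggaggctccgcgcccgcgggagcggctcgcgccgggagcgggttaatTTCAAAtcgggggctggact
Cdc6: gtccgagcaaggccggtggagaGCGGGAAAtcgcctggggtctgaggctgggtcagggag
Mcm5: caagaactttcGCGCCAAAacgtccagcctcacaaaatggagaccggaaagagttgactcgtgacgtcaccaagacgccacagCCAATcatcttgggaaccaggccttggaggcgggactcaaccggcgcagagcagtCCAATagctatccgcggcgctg

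Mki67 carried 2 CHR and 3 CCAAT matches, Ube2c 1 and 2, and E2f8 1 and 1. The Cdc6 stretch held an E2F match 138 bases before the start, and Mcm5 held 1 at 149 bases. A CCAAT match was present in 58.5% of the 106 promoters of genes that fell at least 8-fold, in 29.5% of the 166 of genes that rose at least 8-fold and in 37.3% of all. A CHR match was present in 27.4% of the falls, 20.5% of the rises and 10.8% of all. The E2F match was rarer, in 2.68% of all promoters and in 5 of 18 (27.8%) of the replication genes. Of all genes with a CHR match 30.1% were higher and 25.6% lower, against 26.5% and 28.1% among all 8503. For the CCAAT box the shares were 25.4% higher and 29.7% lower, and for the E2F site 17.1% and 35.1%. A match is a description of letters and not of binding.

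Genes for making protein also fell. Among aminoacyl-tRNA synthetases, which charge tRNAs with amino acids, 0 of 20 tested members rose, 19 fell and 1 was not called (median log2 -0.82). The cysteine enzyme Cars had 2235 and 1908 normalized counts at day 0 and 729.6 and 719 at day 7 (log2 -1.51 ± 0.11, adjusted p = 2.28e-07), and Aars (log2 -1.40 ± 0.09), Iars (log2 -1.28 ± 0.10) and Gars (log2 -1.26 ± 0.09) followed. In ribosome biogenesis 1 of 25 tested members rose, 18 fell and 6 were not called (median log2 -0.46). Nucleophosmin, Npm1, changed by log2 -1.16 ± 0.10 and fibrillarin, Fbl, by log2 -0.94 ± 0.12. Myc, the growth regulator that activates many of these genes, had 599.5 and 604 normalized counts at day 0 and 563 and 629 at day 7 and was not called (log2 -0.02 ± 0.11, adjusted p = 0.91). Of amino acid transporters and synthetic enzymes, 3 of 20 tested members rose, 15 fell and 2 were not called, with 2 more too low to test (median log2 -1.04). The proline pathway enzymes Aldh18a1 (log2 -2.13 ± 0.10) and Pycr1 (log2 -1.90 ± 0.17) fell the most. Glutamine genes went the other way. Glutamine synthetase, Glul, had 1160.0 and 1331 normalized counts at day 0 and 11691 and 11433 at day 7 (log2 3.22 ± 0.10, adjusted p = 1.95e-10), and the glutamine carrier Slc1a5 had 1986 and 2057 normalized counts at day 0 and 9064 and 9348 at day 7 (log2 2.19 ± 0.12, adjusted p = 1.57e-08). Neither gene had overlapping libraries.

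Proteasome subunits fell or were not called, while immunoproteasome genes rose. Of the 31 standard subunits of the proteasome, 17 fell, 0 rose and 14 were not called (median log2 -0.25), and the steepest, Psmb6, changed by only log2 -0.62 ± 0.14. Of 5 genes listed under the immunoproteasome, 4 rose and 1 was not called. Psmb9 (log2 2.13 ± 0.21) and Psmb8 (log2 1.52 ± 0.13), which replace catalytic subunits during antigen processing, rose the most. The list also holds the regulator genes Psme1 (log2 0.45) and Psme2 (log2 0.10, not called), which replace no catalytic subunit. For autophagy, 12 of 20 tested members rose, 2 fell and 6 were not called (median log2 0.32). Gabarapl1 (log2 1.54 ± 0.09) and Map1lc3b (log2 0.94 ± 0.10), which coat the autophagosome, rose with the mitophagy receptor Bnip3 (log2 0.98 ± 0.13) and Atg14 (log2 0.81 ± 0.15).

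Of FoxO regulators and targets, 14 of 21 tested members rose, 5 fell and 2 were not called, with 1 more too low to test (median log2 0.80). Pdk4, the kinase that shuts off pyruvate oxidation, had 120.2 and 139 normalized counts at day 0 and 3870.5 and 3677 at day 7 (log2 4.86 ± 0.10, adjusted p = 5.82e-11). The libraries of the days did not overlap. Txnip, which limits glucose uptake (log2 3.24 ± 0.12), Pik3ip1, an inhibitor of PI3 kinase (log2 2.79 ± 0.13), and Fbxo32, a ubiquitin ligase of muscle wasting (log2 2.41 ± 0.12), also rose. Fatty acid oxidation was less uniform, since 8 of 18 tested members rose, 4 fell and 6 were not called, with 1 more too low to test (median log2 0.14). The uncoupling protein Ucp2 rose by log2 1.15 ± 0.25. The coactivator Ppargc1a had 2 reads at day 0 and 42 at day 7, summed over the libraries of each day. That gives 19.1-fold (95% interval of counting error 4.97-163). In lipoprotein handling and cholesterol efflux 12 of 17 tested members rose, 2 fell and 3 were not called, with 1 more too low to test (median log2 1.06). Apolipoprotein E, Apoe, had 706 and 757 normalized counts at day 0 and 22502 and 21225 at day 7 (log2 4.90 ± 0.13, adjusted p = 9.51e-11). Apod (log2 4.60 ± 0.19), the transporter Abca8a (log2 4.30 ± 0.15) and the fatty acid receptor Cd36 (log2 3.30 ± 0.29) rose alongside it.

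Detoxification had the highest median of the 45 pathway lists: 23 of 27 tested members rose, 1 fell and 3 were not called, with 4 more too low to test (median log2 1.87). Fmo1 (log2 5.44 ± 0.16) rose in this list with Fmo2 and Sult1a1, and Cyp1b1 was not called (log2 0.15 ± 0.13). Antioxidant genes showed no common direction, as 12 of 26 tested members rose, 6 fell and 8 were not called (median log2 0.21). Its leaders were secreted or metal-binding proteins, namely the selenium carrier Sepp1 (log2 4.01 ± 0.16), extracellular glutathione peroxidase Gpx3 (log2 3.73 ± 0.16) and the metallothioneins Mt2 (log2 3.51 ± 0.17) and Mt1 (log2 2.43 ± 0.16). In retinoid handling 5 of 14 tested members rose, 7 fell and 2 were not called, with 3 more too low to test (median log2 -0.33). The retinoic acid-degrading enzyme Cyp26b1 rose by log2 3.37 ± 0.12, the synthetic enzyme Aldh1a1 rose by log2 2.52 ± 0.12, and the carrier Crabp1 fell (log2 -3.19 ± 0.74). Its relative Crabp2 had 59 reads at day 0 and 3 at day 7, summed over the libraries of each day. That gives 0.0463-fold (95% interval of counting error 0.00928-0.142).

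**Figure D3:**
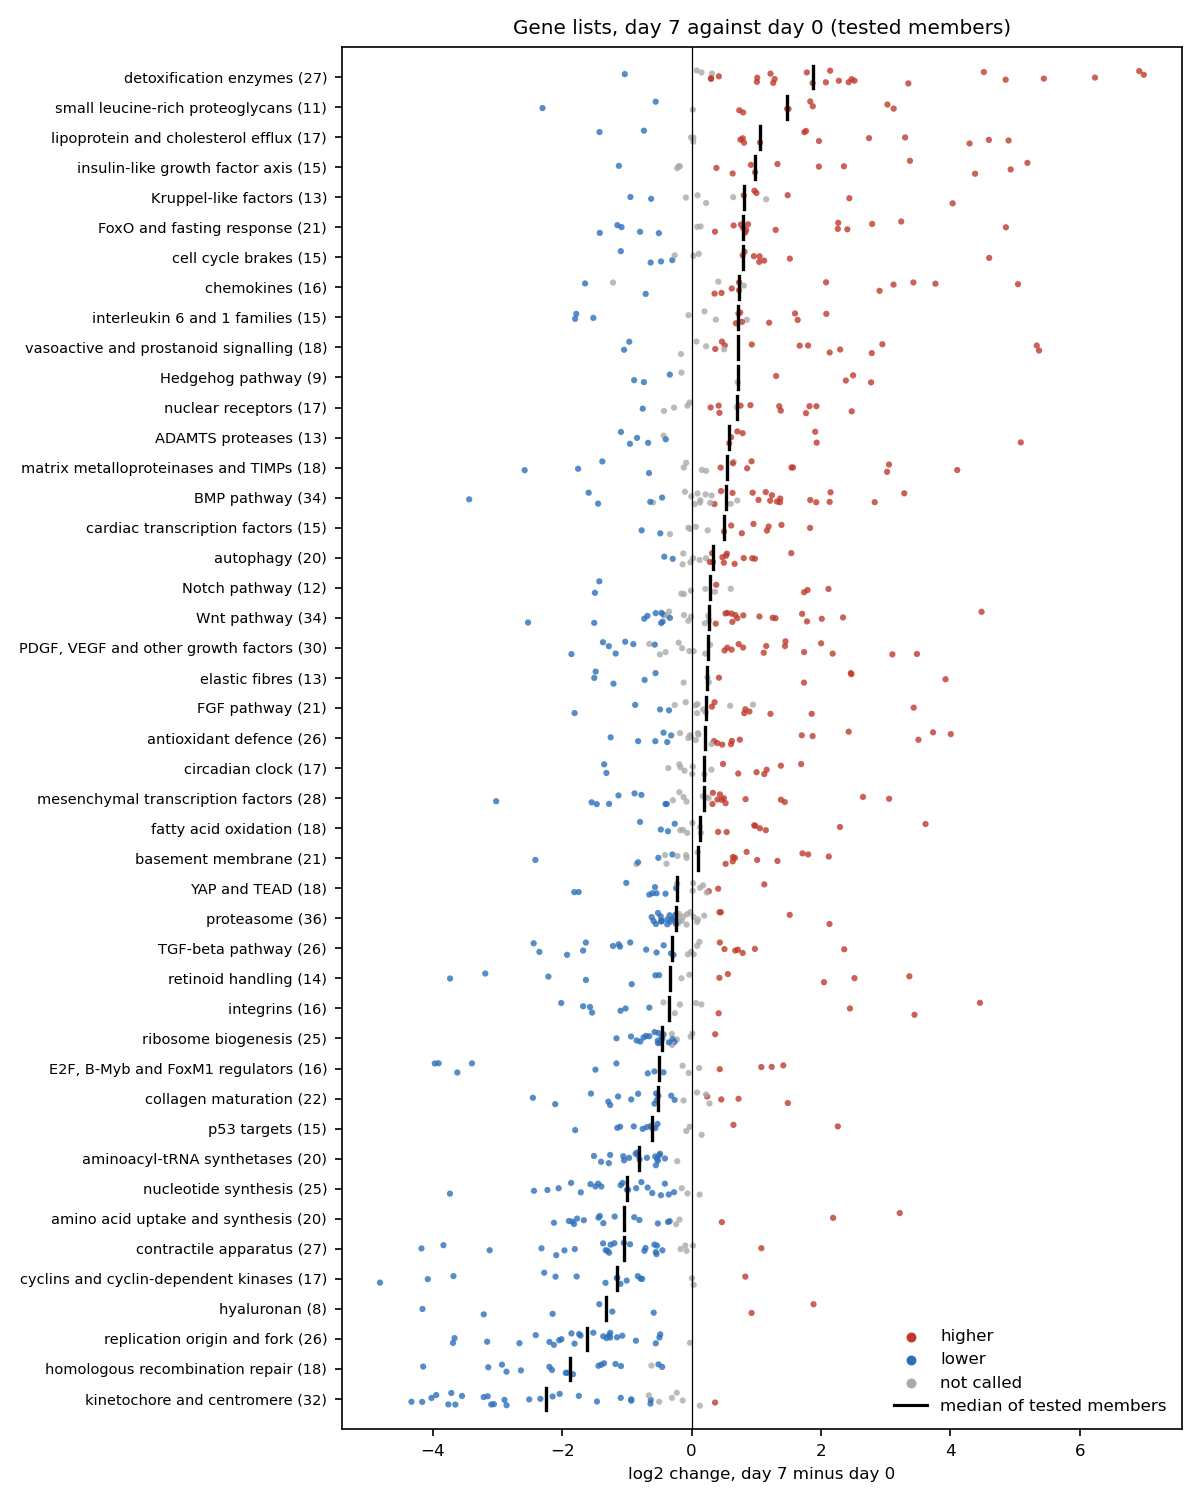
Log2 change from day 0 to day 7 (horizontal) of every tested member of 45 gene lists (rows, number tested in brackets), each point a gene coloured by call and each black bar the median of the list. The medians run from -2.24 for kinetochore genes to 1.87 for detoxification enzymes, and most lists hold members on both sides of 0.

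Among nuclear receptors 11 of 17 tested members rose, 1 fell and 5 were not called, with 1 more too low to test (median log2 0.70). Thyroid hormone receptor beta, Thrb, had 53.3 and 57.5 normalized counts at day 0 and 344 and 284 at day 7 (log2 2.47 ± 0.18, adjusted p = 2.17e-07). Nr4a1, an immediate early receptor (log2 1.93 ± 0.21), the mineralocorticoid receptor Nr3c2 (log2 1.82 ± 0.36) and the oxysterol sensor Nr1h3 (log2 1.77 ± 0.13) rose as well. The glucocorticoid receptor itself, Nr3c1, had 1369 and 1309 normalized counts at day 0 and 1134 and 1082 at day 7 and was not called (log2 -0.27 ± 0.13, adjusted p = 0.0953), though it was called lower with only the compared groups in the fit (adjusted p = 0.00175), with length and GC trends removed (adjusted p = 0.0255) and without either library of day 14. Of Kruppel-like factors, 6 of 13 tested members rose, 2 fell and 5 were not called, with 4 more too low to test (median log2 0.81). Klf15, a regulator of amino acid and lipid use known to respond to glucocorticoids, had 115 and 135 normalized counts at day 0 and 2075 and 2045 at day 7 (log2 4.04 ± 0.10, adjusted p = 8.81e-11). Klf9 rose by log2 2.44 ± 0.20 and Klf13 by log2 1.49 ± 0.10. Clock genes were mixed, and 7 of 17 tested members rose, 2 fell and 8 were not called, with 1 more too low to test (median log2 0.20). Per1 (log2 1.69 ± 0.11) and Per2 (log2 1.38 ± 0.19), the period repressors that glucocorticoids can set, rose, while the clock output Dbp (log2 -1.35 ± 0.13) and Bhlhe40 (log2 -1.32 ± 0.10) fell. The hour of harvest is not given in the sources used here, and its part in the clock values was not tested.

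Stretches that hold the palindrome of the glucocorticoid receptor are shown for 6 genes that rose at least 4-fold. The search covered both strands, and capitals mark the match. Slc10a6 is chr5:103629534-103629593, minus strand, Serpina3n chr12:104406598-104406657, plus strand, Serpina3c chr12:104153920-104153979, minus strand, Mt1 chr8:94178969-94179028, plus strand, Txnip chr3:96557757-96557816, plus strand and Trim63 chr4:134314890-134314949, plus strand, in GRCm38.p6 from RefSeq.
Slc10a6: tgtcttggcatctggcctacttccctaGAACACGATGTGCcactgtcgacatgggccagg
Serpina3n: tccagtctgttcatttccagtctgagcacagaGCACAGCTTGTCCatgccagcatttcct
Serpina3c: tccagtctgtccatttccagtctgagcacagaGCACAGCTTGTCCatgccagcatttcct
Mt1: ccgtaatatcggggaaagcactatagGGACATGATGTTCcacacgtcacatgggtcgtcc
Txnip: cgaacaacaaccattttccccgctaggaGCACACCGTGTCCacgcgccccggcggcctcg
Trim63: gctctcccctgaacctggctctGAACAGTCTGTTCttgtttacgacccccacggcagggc

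The match lay 163 bases before the start in Slc10a6, 78 in Serpina3n, 75 in Serpina3c, 94 in Mt1, 172 in Txnip and 208 in Trim63. Serpina3n and Serpina3c, protease inhibitors of 1 gene cluster, were identical at 59 of the 60 bases shown. Only 26 of the 8503 promoters (0.306%) held the palindrome. Of their genes 14 were higher (53.8%), 7 lower (26.9%) and 5 not called, against 26.5% higher and 28.1% lower among all 8503. Of the 26 genes 8 rose at least 4-fold and 2 fell as much, against 384 and 235 among all 8503. The 8 with the palindrome that rose at least 4-fold were the 6 shown, Folh1, a glutamate carboxypeptidase, and Map3k6, a stress kinase. These were singled out after their values were seen. Serpina3n had 18881 and 23436 normalized counts at day 0 and 404925 and 451928 at day 7 (log2 4.35 ± 0.18, adjusted p = 1.64e-09), Trim63, a ubiquitin ligase of muscle wasting, rose by log2 2.27 ± 0.36 and Serpina3c by log2 4.21 ± 0.14. The palindrome stood in this window for 3.01% of the 166 genes that rose at least 8-fold and for 1.89% of the 106 that fell as much.

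The contractile apparatus fell nearly throughout. Of filament proteins and their regulators, 1 of 27 tested members rose, 22 fell and 4 were not called (median log2 -1.05). Transgelin, Tagln, an actin-binding protein of smooth muscle and myofibroblasts, had 20038 and 20653 normalized counts at day 0 and 2338 and 2332 at day 7 (log2 -3.12 ± 0.11, adjusted p = 4.81e-10). Calponin, Cnn1, had 166 and 158 normalized counts at day 0 and 11.8 and 5.35 at day 7 (log2 -4.18 ± 0.35, adjusted p = 8.41e-07). Both genes separated the days without overlap. Gamma smooth muscle actin, Actg2, changed by log2 -3.84 ± 0.59 and alpha smooth muscle actin, Acta2, by log2 -2.32 ± 0.11, and Fhl2, a LIM protein, was not called (log2 -0.08 ± 0.09). Genes of the YAP and TEAD pathway, which reads cell spreading, fell in smaller numbers: 3 of 18 tested members rose, 9 fell and 6 were not called (median log2 -0.23). The DNA-binding partner Tead2 (log2 -1.82 ± 0.14) and the LIM protein Ajuba (log2 -1.75 ± 0.11) fell, the target Ctgf was not called (log2 0.23 ± 0.12, adjusted p = 0.121), and tissue factor F3, a target that starts coagulation, rose (log2 1.12 ± 0.12).

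Promoter stretches of 5 such genes show the letters of serum response factor and of TEAD proteins. Capitals mark the CArG box, the site of serum response factor, in Myl9 (chr2:156775284-156775343, plus strand), Cnn2 (chr10:79988520-79988579, plus strand) and Srf (chr17:46556203-46556262, minus strand), and the TEAD element GGAATG or CATTCC in Acta2 (chr19:34255484-34255543, minus strand) and Ajuba (chr14:54577802-54577861, minus strand), in GRCm38.p6 from RefSeq.
Myl9: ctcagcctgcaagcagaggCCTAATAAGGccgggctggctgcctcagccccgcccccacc
Cnn2: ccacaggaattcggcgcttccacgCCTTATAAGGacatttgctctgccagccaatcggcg
Srf: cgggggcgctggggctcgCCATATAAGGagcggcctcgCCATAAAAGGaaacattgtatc
Acta2: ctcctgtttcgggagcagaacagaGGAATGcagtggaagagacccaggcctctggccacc
Ajuba: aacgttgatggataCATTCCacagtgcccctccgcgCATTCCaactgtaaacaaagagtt

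Srf, the gene of serum response factor, carried 2 CArG matches at 82 and 62 bases before its start. Myl9 carried 1 at 161 bases and Cnn2 1 at 56 bases. A CArG match was present in 4 of 19 contractile promoters (21.1%) and in 1.28% of all. Myl9, a myosin light chain, fell (log2 -1.97 ± 0.15), with Cnn2 at log2 -1.28 ± 0.10 and Srf at log2 -0.58 ± 0.13. The TEAD element was found in 8 of 19 contractile promoters (42.1%), in 8 of 11 of the YAP and TEAD list (72.7%) and in 10.7% of all. Across all promoters with that element 28.8% of genes were higher and 28.2% lower.

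Target genes of BMP signalling rose. In the whole BMP pathway 17 of 34 tested members rose, 5 fell and 12 were not called, with 10 more too low to test (median log2 0.53). Of 8 tested target genes, 7 rose, 0 fell and 1 was not called (median log2 1.27), among them Id1, an inhibitor of differentiation factors, with 697 and 591 normalized counts at day 0 and 2407 and 2475 at day 7 (log2 1.93 ± 0.12, adjusted p = 4.50e-08), and Id3 with 5759.6 and 5761 normalized counts at day 0 and 13818 and 14956 at day 7 (log2 1.32 ± 0.11, adjusted p = 9.65e-07). Id1, Id3 and Bambi were singled out after their values were seen. Of 9 tested antagonists, all secreted but the membrane pseudoreceptor Bambi (log2 0.46 ± 0.12, not called without the first library of either day), 6 rose and 2 fell (median log2 0.63), with Chrdl1, a chordin relative, at 8.76 and 3.92 normalized counts at day 0 and 70.1 and 63.3 at day 7 (log2 3.29 ± 0.31, adjusted p = 2.04e-06) and follistatin, Fst, at log2 2.15 ± 0.12. Ligands and receptors were less uniform. Bmp3, a ligand known to oppose bone formation, rose by log2 2.83 ± 0.33, and the type I receptor Bmpr1b fell (log2 -3.44 ± 0.64).

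The TGF-beta pathway, which sustains the myofibroblast, had mostly lower targets. Of 10 targets 8 fell and 2 rose (median log2 -0.90), and in the whole pathway 7 of 26 tested members rose, 14 fell and 5 were not called (median log2 -0.30). Ltbp1, which tethers latent TGF-beta to the matrix, had 4225 and 4346 normalized counts at day 0 and 776 and 799.7 at day 7 (log2 -2.44 ± 0.12, adjusted p = 5.74e-09). Its relative Ltbp2 (log2 -2.35 ± 0.19) and Inhba, the activin A subunit (log2 -1.93 ± 0.30), fell alike, while the coreceptor Tgfbr3 rose (log2 2.36 ± 0.11) and the ligand Tgfb3 was not called (log2 0.12 ± 0.09). A test of BMP targets against TGF-beta targets was not made.

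Wnt genes moved in both directions: 16 of 34 tested members rose, 10 fell and 8 were not called, with 12 more too low to test (median log2 0.26). Dkk3, a secreted dickkopf family protein, had 146 and 218 normalized counts at day 0 and 3928 and 4090.3 at day 7 (log2 4.48 ± 0.16, adjusted p = 5.23e-10), whereas Dkk2, an inhibitor of Wnt coreceptors, fell (log2 -2.53 ± 0.20). Axin2, a feedback target of the canonical pathway (log2 2.34 ± 0.40), and the agonist Rspo1 (log2 2.01 ± 0.36) rose, and the coreceptor Lrp6 was not called (log2 -0.12 ± 0.10). The insulin-like growth factor axis rose in most of its parts, as 11 of 15 tested members rose, 1 fell and 3 were not called, with 2 more too low to test (median log2 0.98). Igfbp3, the main circulating carrier of these factors, had 221 and 312 normalized counts at day 0 and 8365 and 7736 at day 7 (log2 4.93 ± 0.22, adjusted p = 3.38e-09), and Igfbp6, which prefers the ligand Igf2, had 357 and 465 normalized counts at day 0 and 14742 and 15139.7 at day 7 (log2 5.19 ± 0.23, adjusted p = 3.38e-09). Both rose in both libraries without overlap. Stanniocalcin 1, Stc1, which blocks the protease that frees the factors, changed by log2 4.38 ± 0.23 and the protease Htra3 by log2 3.38 ± 0.14. Igfbp5 (log2 -0.22 ± 0.18) and the receptor Igf1r (log2 -0.18 ± 0.10) were not called.

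Other growth factor families were split. In the FGF pathway 8 of 21 tested members rose, 4 fell and 9 were not called, with 3 more too low to test (median log2 0.22), with Fgf1 (log2 3.43 ± 0.17) and Fgf18 (log2 1.86 ± 0.17), a ligand of cartilage and bone growth, higher and the feedback inhibitor Spred3 lower (log2 -1.81 ± 0.16). For PDGF, VEGF and other growth factors 14 of 30 tested members rose, 7 fell and 9 were not called, with 3 more too low to test (median log2 0.25). Gas6, the ligand of Axl family receptors, changed by log2 3.48 ± 0.14, Vegfc, a lymphatic growth factor, by log2 2.18 ± 0.11, and the VEGF receptors Flt1 and Nrp1 by log2 3.10 ± 0.19 and log2 2.00 ± 0.15. In the Notch pathway 4 of 12 tested members rose, 2 fell and 6 were not called, with 3 more too low to test (median log2 0.29). Notch3, a receptor of mural cells, had 736 and 744 normalized counts at day 0 and 2623 and 2511 at day 7 (log2 1.79 ± 0.31, adjusted p = 3.60e-04), and Lfng, which modifies Notch receptors, rose by log2 2.12 ± 0.19 while the target Heyl fell (log2 -1.49 ± 0.19). In the Hedgehog pathway 4 of 9 tested members rose, 3 fell and 2 were not called, with 1 more too low to test (median log2 0.71). Gli2, its transducer, rose by log2 2.38 ± 0.18. The target Gli1 went from 0 reads at day 0 to 13 at day 7, summed over the libraries of each day. That is 3.95-fold against a floor of 3 reads (95% lower limit of counting error 2.775).

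**Figure D4:**
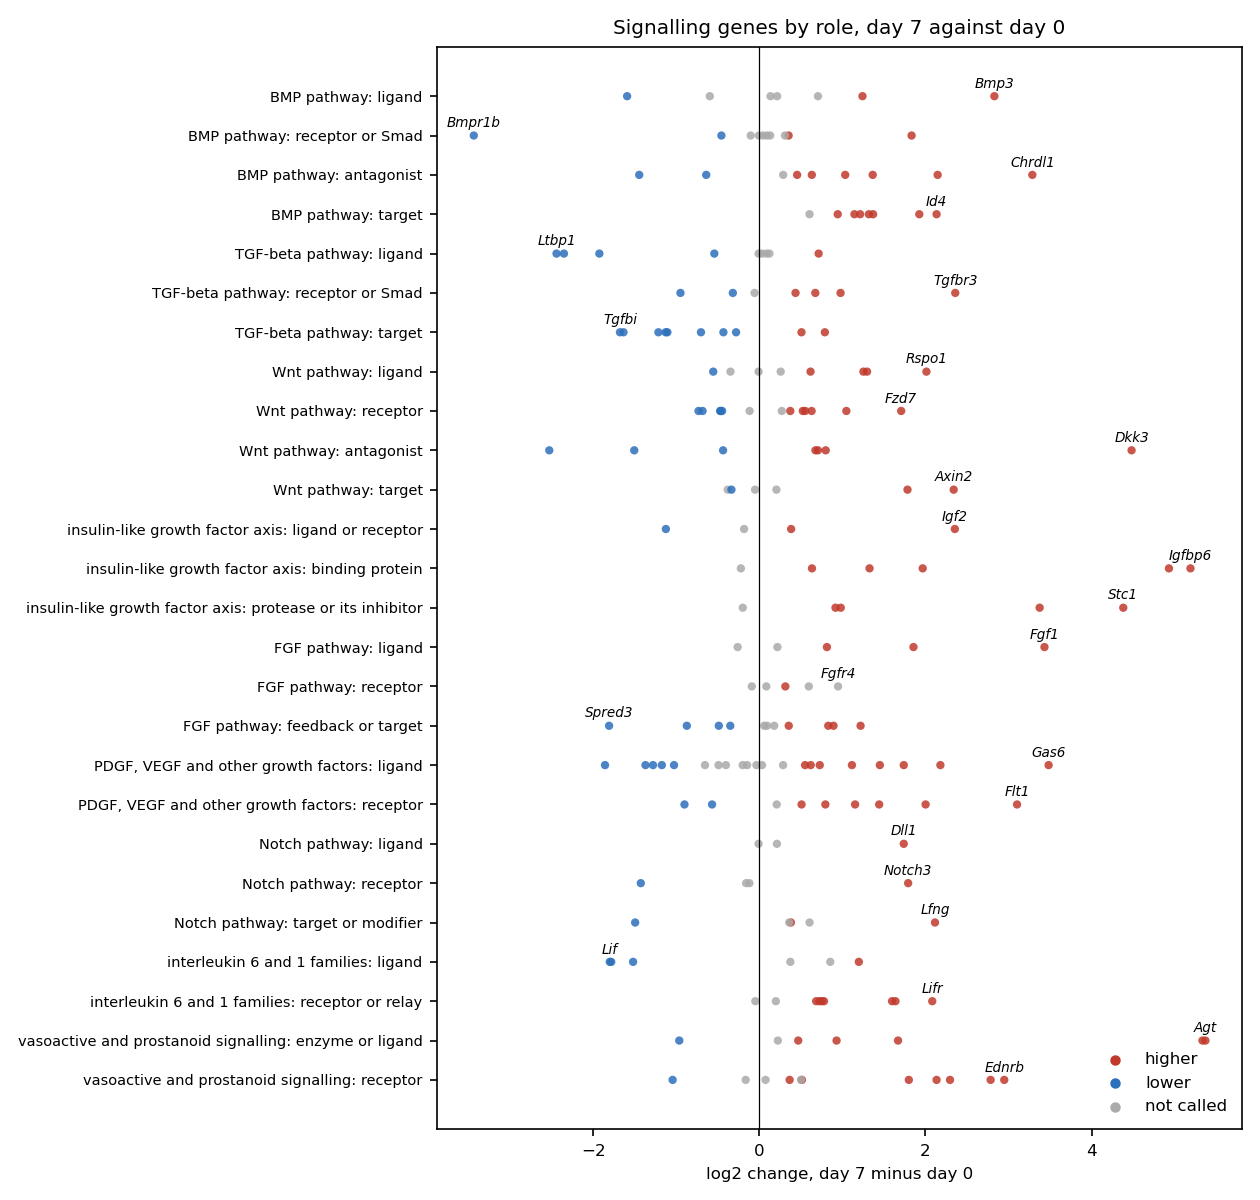
Log2 change from day 0 to day 7 (horizontal) of tested signalling genes, grouped by pathway and role (rows), each point a gene coloured by call, with the gene of largest change in each row named. Tested BMP targets lie above 0, and 8 of 10 TGF-beta targets lie below it.

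In the interleukin 6 and 1 families 3 of 6 tested ligands fell and 1 rose, and 7 of 9 receptors and relays rose and 0 fell (medians -0.57 and 0.75), a contrast that was not tested. Il6 had 347 and 411 normalized counts at day 0 and 107 and 111 at day 7 (log2 -1.78 ± 0.17, adjusted p = 2.83e-06), and Lif had 399.7 and 425 normalized counts at day 0 and 108 and 127 at day 7 (log2 -1.80 ± 0.14, adjusted p = 5.43e-07). Their receptor chains Il6ra (log2 1.64 ± 0.25) and Lifr (log2 2.08 ± 0.10) rose, and the transducer Stat3 was not called (log2 0.20 ± 0.10). Among chemokines 11 of 16 tested members rose, 2 fell and 3 were not called, with 5 more too low to test (median log2 0.73). Cxcl1, which attracts neutrophils, rose by log2 3.12 ± 0.32 and Ccl6 by log2 3.43 ± 0.33. Cxcl13, which attracts B cells, went from 0 reads at day 0 to 73 at day 7, summed over the libraries of each day. That is 22.2-fold against a floor of 3 reads (95% lower limit of counting error 17.6). Ccl3, a macrophage chemokine, had 2 reads at day 0 and 47 at day 7, summed over the libraries of each day. That gives 21.4-fold (95% interval of counting error 5.6-182). The rise of macrophage markers given above was in the same libraries, and its part in the chemokine values was not tested.

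Of vasoactive and prostanoid enzymes, ligands and receptors, 12 of 18 tested members rose, 2 fell and 4 were not called, with 5 more too low to test (median log2 0.72). Angiotensinogen, Agt, the precursor of angiotensin peptides, had 80.4 and 86.3 normalized counts at day 0 and 3273 and 3717 at day 7 (log2 5.37 ± 0.13, adjusted p = 8.39e-11). Ace, the enzyme that forms angiotensin II, had 719.7 and 950.5 normalized counts at day 0 and 32775 and 34079 at day 7 (log2 5.33 ± 0.18, adjusted p = 4.04e-10). Precursor and enzyme both stood far above day 0 in both libraries of day 7. The endothelin receptor Ednrb (log2 2.95 ± 0.37) and the adrenergic receptor Adra1b (log2 2.79 ± 0.16) rose, and Ptges, which makes prostaglandin E2, was not called (log2 0.22 ± 0.23).

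Matrix genes changed by class. Small leucine-rich proteoglycans, which bind collagen fibrils and growth factors, mostly rose: 8 of 11 tested members rose, 2 fell and 1 was not called, with 1 more too low to test (median log2 1.48). Osteomodulin, Omd, a keratan sulfate proteoglycan of bone, had 8.76 and 10.5 normalized counts at day 0 and 100.2 and 82.9 at day 7 (log2 3.12 ± 0.20, adjusted p = 9.04e-08), asporin, Aspn, rose by log2 3.03 ± 0.13 and decorin, Dcn, by log2 1.87 ± 0.14, while Podnl1 fell (log2 -2.30 ± 0.44). Enzymes and chaperones of collagen maturation mostly fell, as 4 of 22 tested members rose, 14 fell and 4 were not called, with 1 more too low to test (median log2 -0.53). The procollagen protease Tll1 (log2 -2.45 ± 0.17) and the lysyl oxidases Loxl2 (log2 -2.11 ± 0.11) and Loxl4 (log2 -1.56 ± 0.13) fell most, and Lox itself was not called (log2 -0.12 ± 0.14). The 8 tested hyaluronan genes had a median of -1.33, with 6 that fell and 2 that rose. Has2, the main hyaluronan synthase of mesenchyme, had 209 and 230.1 normalized counts at day 0 and 20 and 25.9 at day 7 (log2 -3.21 ± 0.30, adjusted p = 1.82e-06), a fall in both libraries without overlap. The proteoglycan versican, Vcan, which binds hyaluronan, fell too (log2 -2.15 ± 0.14), as did the receptor Hmmr (log2 -4.16 ± 0.24), which is also a spindle protein.

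Elastic fibre genes were evenly split: 5 of 13 tested members rose, 5 fell and 3 were not called (median log2 0.25). Fibrillin 2, Fbn2, of developing microfibrils, had 3.18 and 5.23 normalized counts at day 0 and 75.6 and 77.6 at day 7 (log2 3.93 ± 0.31, adjusted p = 5.05e-07), and fibulins Efemp1 (log2 2.47 ± 0.14) and Fbln1 (log2 2.46 ± 0.15) rose. Of basement membrane genes, 10 of 21 tested members rose, 4 fell and 7 were not called, with 1 more too low to test (median log2 0.10), from Nid2 (log2 2.12 ± 0.12) and Lamb3 (log2 1.80 ± 0.33) to Col15a1 (log2 -2.42 ± 0.22). Integrins were mixed, as 4 of 16 tested members rose, 7 fell and 5 were not called (median log2 -0.35). Itga8, a receptor of mesenchyme, had 11.1 and 13.1 normalized counts at day 0 and 284 and 288 at day 7 (log2 4.46 ± 0.17, adjusted p = 8.86e-10), and the collagen receptor Itga10 (log2 3.44 ± 0.29) and laminin receptor Itga7 (log2 2.45 ± 0.17) rose. Matrix proteases included Mmp3, stromelysin 1, with 5309.7 and 6350.2 normalized counts at day 0 and 45578 and 50862 at day 7 (log2 3.05 ± 0.17, adjusted p = 2.58e-08), and in the whole list of metalloproteinases and their inhibitors 9 of 18 tested members rose, 4 fell and 5 were not called, with 1 more too low to test (median log2 0.54). Mmp10 (log2 3.02 ± 0.18) rose, Mmp16 fell (log2 -2.58 ± 0.13), and Mmp14, a membrane collagenase, was not called (log2 -0.12 ± 0.13). The inhibitor Timp4 went from 0 reads at day 0 to 36 at day 7, summed over the libraries of each day. That is 10.9-fold against a floor of 3 reads (95% lower limit of counting error 8.44). Of ADAMTS proteases, 7 of 13 tested members rose, 5 fell and 1 was not called, with 5 more too low to test (median log2 0.58), led by the versican-cleaving Adamts15 (log2 5.09 ± 0.31) and Adamts1 (log2 1.93 ± 0.12).

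Transcription factors of the heart rose more often than they fell. In that list 8 of 15 tested members rose, 2 fell and 5 were not called, with 3 more too low to test (median log2 0.50). Tbx20, a T-box factor of the developing heart, had 4961 and 4498 normalized counts at day 0 and 13014 and 11760.0 at day 7 (log2 1.39 ± 0.13, adjusted p = 1.70e-06), and Gata4, an early cardiac factor, had 2679.9 and 2760.0 normalized counts at day 0 and 2673 and 2582 at day 7 and was not called (log2 -0.05 ± 0.10, adjusted p = 0.701). Mef2c rose by log2 1.16 ± 0.13 and Tcf21, of cardiac fibroblasts, by log2 1.83 ± 0.10. Among mesenchymal factors 12 of 28 tested members rose, 9 fell and 7 were not called, with 2 more too low to test (median log2 0.20). Scleraxis, Scx, the tendon regulator, had 86.8 and 103 normalized counts at day 0 and 10 and 11.6 at day 7 (log2 -3.02 ± 0.28, adjusted p = 1.77e-06), so both libraries of day 7 were below day 0. The factors Osr2 (log2 3.05 ± 0.68) and Nfatc2 (log2 2.65 ± 0.41) rose, and Foxf1 fell (log2 -1.55 ± 0.26).

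The change of the first week differed from that of the second for many genes. Testing day 7 minus day 0 against day 14 minus day 7 in limma, with the day 7 libraries in both, called 5784 genes (42.8%). This count fell to 2942 without the first library of day 7 and to 3174 without the second. The second-week changes below are differences of group means, without a standard error, and were not tested against 0 on their own. Each adjusted p below belongs to the difference between the weeks. Several genes had mean levels that moved little after day 7. Pdk4 moved by log2 0.09 in the second week, and its first-week change exceeded that by log2 4.77 ± 0.18 (adjusted p = 2.73e-08). Klf15 (log2 0.10 in the second week, excess log2 3.94 ± 0.18, adjusted p = 6.94e-08) and Glul (log2 -0.09, excess log2 3.31 ± 0.17, adjusted p = 1.07e-07) were alike. In other genes the means turned back. Tagln recovered by log2 1.04 between days 7 and 14 (difference log2 -4.16 ± 0.19, adjusted p = 6.94e-08), Notch3 moved by log2 -1.83 (difference log2 3.62 ± 0.54, adjusted p = 2.59e-04) and Scx by log2 1.21 (difference log2 -4.24 ± 0.48, adjusted p = 3.74e-05). In a further set the means moved on in the same direction, Chrdl1 by log2 1.45 (difference log2 1.84 ± 0.53, adjusted p = 0.0149) and Ltbp1 by log2 -1.03 (difference log2 -1.41 ± 0.20, adjusted p = 2.17e-04). For Id3, log2 0.82 in the second week did not differ from the first-week change beyond the threshold (log2 0.50 ± 0.20, adjusted p = 0.0578). The genes of this paragraph were chosen after their values were seen.

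**Figure D5:**
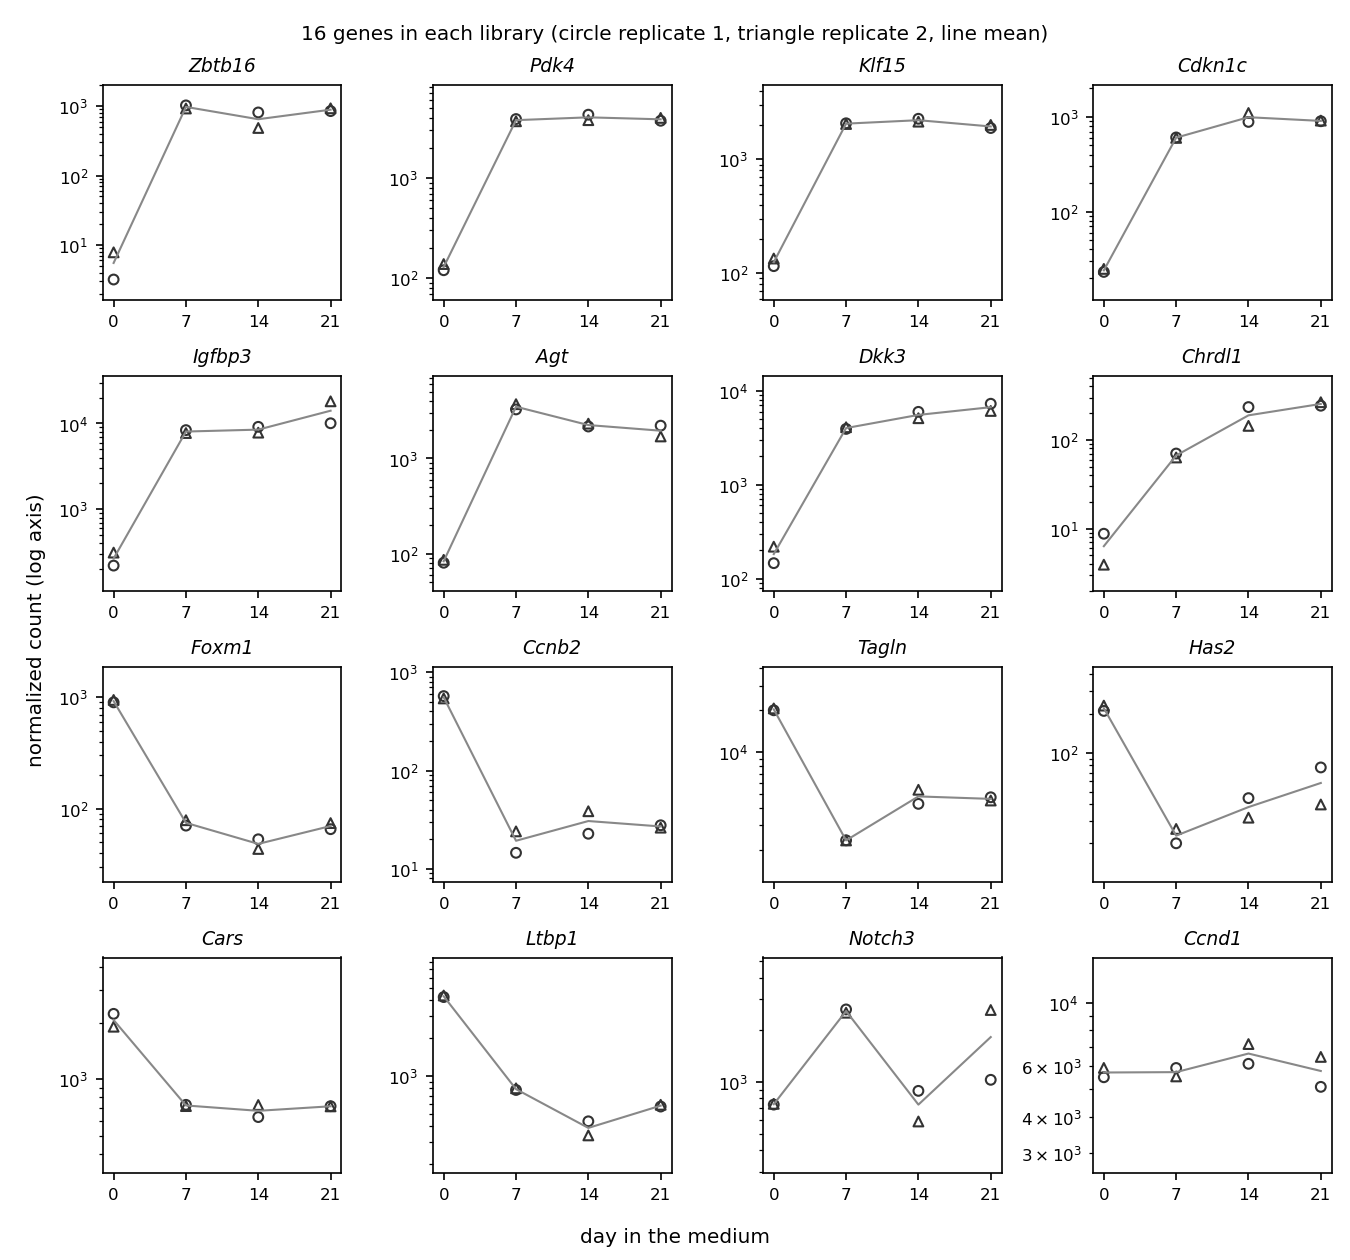
Normalized counts of 16 genes (vertical, log axis) by day in the medium (horizontal), with circles for replicate 1, triangles for replicate 2 and lines through the means. The means of Zbtb16, Pdk4 and Klf15 stay near their day 7 level, those of Tagln and Notch3 turn back by day 14, and Ccnd1 overlaps between days 0 and 7.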

How the data were processed

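RNA sequencing libraries of day 0 and day 7 were compared, 2 per group, within a fit over all 8 libraries. For 24015 symbols, of which 5936 had no read, the authors deposited a normalized signal: judged from the values, whole reads scaled by a size factor of the library. TopHat2 2.0.11, HTSeq 0.6.1, DESeq (version not given) and the mouse genome mm9 are named, without roles, in the submitters' processing notes. Annotation, strand and the medium's components are not named there or in the labels. Per the labels' protocols, RNeasy Plus Mini Kit columns purified the RNA for standard Illumina libraries. Since strand is not given, overlapping and antisense genes are uncertain.

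Genes that reached 10 normalized counts in 2 or more libraries (13527) were fitted, as log2 of the value plus 1, with limma 3.58.1 (trend, 4 residual and 8.16 prior degrees of freedom) and adjusted by the Benjamini-Hochberg method, called below 0.05. Values stepped in units of 1 read: 100.0% were whole within 0.01 reads after division by that step. On those reads edgeR 4.0.16 called 7581 genes and DESeq2 1.42.0 called 6642. On simulated reads for this comparison limma found 51.6% of 64 genes set to move 1.5-fold, 85.5% of 69 set at 2-fold and 97% of 67 set at 4-fold, and called 8 of 13327 left alone. The simulation altered only these genes, far fewer than the 7492 called in the data, and adjusted p depends on how many genes change. Its rates therefore need not hold for the calls above. Replicate libraries correlated at 0.993 (day 0) and 0.994 (day 7), and differed by more than counting error (chi-square over degrees of freedom 4.91 and 3.48). Those of days 14 and 21 correlated at 0.988 and 0.990 and differed more (chi-square over degrees of freedom 19.0 and 18.6). They enter the shared estimate of spread, which therefore need not match the spread of days 0 and 7. Depth limits precision for genes of few reads. A group with 0 reads gives a fold against a floor of 3 reads over the group, with a 95% lower limit. A group with 1 to 3 reads gives a fold with its 95% interval. Limit and interval cover counting error only.

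The comparison and the 45 pathway and 14 cell type lists were chosen with earlier results of these data known. Genes are named by a rule: the 15 largest called rises and falls (higher group averaging 50 or more, libraries not overlapping, predicted models left out), up to 4 called and 2 uncalled members per list, the 10 highest genes of each day, and 17 genes always considered; exceptions are stated, and some genes under the rule are not reported here. Promoters came from RefSeq (GRCm38.p6), matched by symbol. Alternatives tried were edgeR, DESeq2, pseudocounts of 0.25 and 8, no filter or one at 50, TMM scaling, the compared groups alone, each of the 8 libraries left out, the replicate number as a block, and removal of transcript length and GC trends (GENCODE M21, 98.4% of symbols matched). Software was R 4.3.3 and Python 3.11.15, with figures by matplotlib 3.10.9.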

Additional observations from a re-analysis of the deposited data

How the results depend on the processing

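Across the alternatives 5565 to 9070 genes were called between days 7 and 0, against 7492, the highest count coming from a fit of the compared groups alone and the range without 1 library being 5565 to 8151; leaving out libraries of days 14 and 21 was added after seeing the data. Genes that rose at least 4-fold numbered 397 with a pseudocount of 8, against 648. Genes whose first-week and second-week changes differed, 5784, ranged from 2942 to 6729 without 1 library (the latter without the first day 14 library), with 2942 and 3174 when a day 7 library, which enters both weeks, was left out; the lone library left is then assumed to vary like the other groups. Of 229 tested genes named, 4 lost their call under some alternative: Alpl, Bambi, Cdh5 and Egfl7, each without 1 library, with Alpl and Egfl7 also in DESeq2 and Egfl7 with no filter on low values. Of the genes given as not called, 7 passed the threshold somewhere: Ctgf, Cyp1b1, Igf1r, Igfbp5, Mis12, Nr3c1 and Stat3 with the compared groups alone, and some of them elsewhere (Ctgf in DESeq2, Mis12, Nr3c1 and Stat3 with length and GC trends removed, Nr3c1 without either day 14 library). These checks of the named genes gave 4103 values over 18 alternatives. A gene absent from a fit, or without an adjusted p in it, gave none there. The direction turned for 2 uncalled genes near 0. Ccnd1 stood at -0.0197 after removal of the length and GC trend and at -0.0495 to 0.0583 without 1 library. Myc stood at 0.0186 in edgeR, 0.0161 under TMM scaling and -0.0961 to 0.0647 without 1 library. TMM scaling moved the median of all genes from -0.01 to 0.02. The length slope between the days was -0.02 log2 per doubling.

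Same-numbered libraries of days 0 and 7 showed no shared deviation: their deviations correlated at 0.04. This does not exclude that they were matched by culture or animal. With the replicate number as a block 7443 genes were called, and 5676 for the difference between weeks. Medians of the gene lists that reach 0 reads in 1 group were the same with those genes at their fold against the floor of 3 reads, except the cardiomyocyte list (2.60 in place of 3.28).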
